A study of Mus musculus with 8 samples.

Results

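The genes described here encode the proteins of the cytosolic large ribosomal subunit. They are 43 genes taken by name from a table of 31417 genes, and all 43 were found in it. Of these, 41 passed the low-count filter that left 16228 genes for testing, and Rpl24 and Rpl38 did not. The samples were bulk hippocampus of adult mice aged 12 months, in 2 groups of 4 libraries. The KO group carried a knock out of Dclk3, which encodes a protein kinase of the doublecortin-like family, and the WT group was wild type. Poly(A) RNA from 1 hippocampus per library was sequenced after a stranded preparation with dUTP. The labels name no strain, sex, litter or deleted exon, and they leave unsaid whether the libraries of a group come from separate animals. The p-values therefore describe the spread among these libraries, and some of it may be technical.

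The large subunit joins amino acids at the peptidyl transferase centre, which is made of ribosomal RNA, and passes the growing chain out through an exit tunnel. Its proteins fold and hold that RNA, line the tunnel, recruit elongation factors through a flexible stalk, and form the contacts with the small subunit. Most of their mRNAs begin with a run of pyrimidines, the TOP element, through which the mTORC1 kinase complex and Larp1 control their translation together. In neurons, ribosomes lie in the cell body and also in dendrites, so that part of the hippocampal supply of proteins is made near synapses.

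The libraries held 29301974 to 36552757 counts, so that 1 count was worth 0.0274 to 0.0341 CPM before TMM scaling. CPM are the counts scaled to library size, and the values given here are also scaled by TMM factors. The targeted gene was counted in both groups. Dclk3 had 8.19, 9.29, 5.92 and 7.45 CPM in the KO libraries, against 23.0, 39.3, 20.8 and 23.5 CPM in the WT libraries. The groups did not overlap, the log2 fold change was -1.79 (SE 0.22), and an exact two-sided permutation test over the 8 libraries gave p = 0.0286, the smallest value that 4 against 4 allows. With edgeR's quasi-likelihood test its adjusted p was 0.234. That test called 0 of the 16228 genes at an adjusted p under 0.05, while 1000 had an unadjusted p under 0.05, and DESeq2 called 5 genes and limma-voom 0. Markers of dentate granule cells (8 genes), CA1 (6 genes) and CA3 (5 genes) were listed for the hippocampus, and all of them passed the filter. Their levels were not set against another tissue, so they do not test the identity of this one. Summed granule cell marker levels were 617 to 691 CPM in KO and 513 to 604 CPM in WT, CA1 marker levels 685 to 871 CPM in KO and 769 to 904 CPM in WT, and CA3 marker levels 282 to 388 CPM in KO and 327 to 375 CPM in WT.

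The large subunit genes are copied many times in the mouse genome as processed pseudogenes, and this bears on every value below. In the GENCODE M21 transcripts, between 4.905% (Rpl35) and 94.81% (Rpl22) of the 50-base stretches of a member's transcript occurred in no other annotated gene, with a median of 40%. Each member shared at least 1 such stretch with 1 to 120 pseudogenes, with a median of 11. Rpl7a had the 120. The following are coding stretches of 50 bases from 4 members with many copies. They are shown because a read that lies wholly within one of them cannot be assigned to the member by its letters. A longer read may reach bases that are not shared. None is in capitals, since all bases of each stretch are shared.
Rpl7a: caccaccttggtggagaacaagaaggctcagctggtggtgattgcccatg
Rpl29: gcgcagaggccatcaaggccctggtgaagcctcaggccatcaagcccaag
Rpl21: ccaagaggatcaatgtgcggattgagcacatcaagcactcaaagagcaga
Rpl23a: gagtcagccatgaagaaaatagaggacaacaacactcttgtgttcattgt
The Rpl7a stretch occurred in 45 other genes, 42 of them pseudogenes. The Rpl29 stretch occurred in 25 other genes, the Rpl21 stretch in 24 and the Rpl23a stretch in 18. These genes lie on chromosomes 2, 9, 5 and 11, in the order in which their stretches are listed. The sources used here do not give the read length or the handling of reads that map to several places, so where such reads were counted is unknown and every level below is uncertain in that respect.

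Counted levels of the 43 genes spanned a 3062-fold range of mean CPM, although the assembled subunit holds 1 copy of most of its proteins. The level per kilobase of transcript ran with the share of the transcript that is found nowhere else. Over the 14 members with under 25% of unshared stretches the median level was 3.99 CPM per kilobase. Over the 13 members with 25% to 50% it was 12.5, and over the 16 members with 50% or more it was 30.7 CPM per kilobase. Spearman's rho across the 43 genes was 0.517 with stretches of 50 bases and 0.672 with stretches of 100 bases, given as a description of genes that share the same 8 libraries. Members with much unshared sequence could still be low, as Rpl21 was with 73.82% unshared, and Rplp1 was high with 40% unshared. The fold change between the genotypes showed no such order, with a rho of -0.18 across the 41 tested members and medians of 0.09, 0.10 and 0.07 on the log2 scale in the 3 classes from least to most unshared sequence. Pseudogenes sharing a stretch received few counts of their own. They summed to 9620 counts, each pseudogene counted for every member it matches, against 426186 counts in the members, and 42 of the 43 members had more counts than their pseudogenes together. The exception was Rpl24, with 34 counts over all libraries, against 166 for its pseudogenes.

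**Figure D1:**
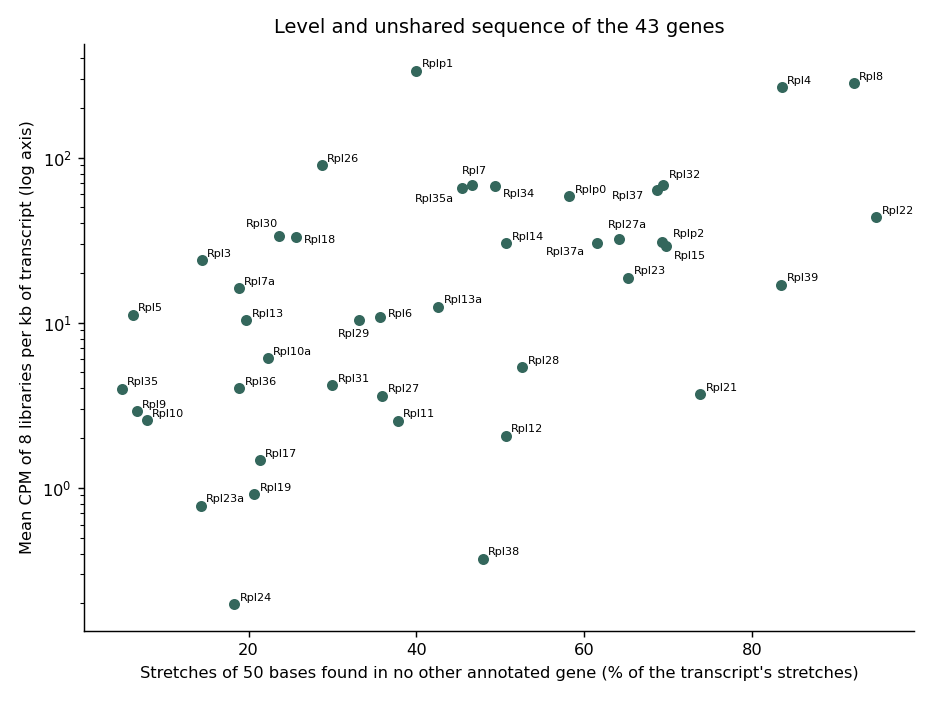
Mean CPM of the 8 libraries per kilobase of transcript (log axis) against the percentage of a member's 50-base stretches found in no other annotated gene, 1 point per gene for all 43 genes. Levels rise loosely from left to right, with a median of 3.99 CPM per kilobase under 25% and 30.7 CPM per kilobase at 50% and over, and Rpl24 and Rpl38 lie lowest.

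Per kilobase of merged exon, the 3 highest members were Rplp1 (336 CPM per kilobase), Rpl4 (204) and Rpl8 (176), and the median member had 6.32. Rplp1, Rpl4 and Rpl8 together took 49.2% of the counts of the family. Rpl4, which lines the exit tunnel with a long loop, had 435, 407, 414 and 399.5 CPM in the KO libraries, against 427, 386, 402 and 411 CPM in the WT libraries. Rpl8, which reaches toward the catalytic centre, had 243, 245, 228 and 255 CPM in the KO libraries, against 241, 229.6, 225 and 252 CPM in the WT libraries. The libraries of the 2 genotypes interleave for both genes, and the log2 fold changes were 0.03 (SE 0.06) for Rpl4 and 0.04 (SE 0.06) for Rpl8. At the other end were Rpl24 (0.130 CPM per kilobase), Rpl38 (0.249) and Rpl23a (0.514). Rpl24, a protein of the contact with the small subunit, had 6, 3, 5 and 3 counts in the KO libraries, against 4, 2, 3 and 8 counts in the WT libraries. Rpl38, which in mice is known for its part in the translation of Hox mRNAs, had 4, 5, 6 and 2 counts in the KO libraries, against 2, 7, 5 and 3 counts in the WT libraries. At these counts a genotype difference was not detectable, and neither gene was tested.

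Between the genotypes the family differed little. Of the 41 tested members, 34 had a log2 fold change above 0 and 7 below 0, while 50.1% of all genes tested lay above 0. The members share the same 8 libraries and moved together in part, with a median pairwise correlation of 0.35 in log2 CPM. The count of signs is therefore a description and not a count of independent results. The median over the members was 0.09, against 0.0003 over all genes, and single members ran from -0.58 (Rpl23a) to 0.47 (Rpl12). In 21 members the change was within 0.1 of 0, in 8 it was above 0.2 and in 2 it was below -0.2. None of the 41 was called by edgeR's quasi-likelihood test with Benjamini-Hochberg adjustment over all genes, where the background was 0.00%, and the lowest adjusted p of a member was 0.796. Unadjusted p was under 0.05 for 2 members, Rpl34 and Rpl13a, both higher in KO. Among all genes tested 6.16% had such a p, 3.96% higher and 2.20% lower in KO. DESeq2, with a background of 0.0224%, called 0 members and had 2 at an unadjusted p under 0.05, where 3.55% of its genes had such a p. Limma-voom called 0 members and had 6 of 41 at an unadjusted p under 0.05, where 9.27% of all genes tested had such a p. In no member did all KO libraries lie on 1 side of all WT libraries, whereas 3.80% of all genes tested separated the groups, 1.88% with KO above and 1.92% with KO below. The SE of a member's log2 fold change was 0.0473 to 0.294 with a median of 0.128. The change exceeded 2 SE in 3 members, Rpl12, Rpl13a and Rpl34. This cut is not a call, since Rpl12 had an unadjusted p of 0.0657 by edgeR. The shares of all genes past the cuts on size and on SE were not computed, so these counts are a description.

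The summed level of the 43 genes was 1800, 1713, 1651 and 1636 CPM in the KO libraries, against 1721, 1504, 1595 and 1675 CPM in the WT libraries. The means were 1700 ± 74.7 CPM in KO and 1624 ± 95.1 CPM in WT (SD, n = 4 each), a ratio of 1.05, and the groups overlapped. As a share of all counts this was 0.172% ± 0.0127 in KO and 0.161% ± 0.00882 in WT (SD, n = 4 each). The shift of the median rested on few libraries. Left out singly, KO replicate 1 gave 0.04, WT replicate 2 gave 0.05 and KO replicate 4 gave 0.15 on the log2 scale. The number of members above 0 was then 30, 32 and 36 of 41, and over all 8 such fits it lay between 30 and 36. In all 8 fits 28 members lay above 0 and 4 lay below 0, namely Rpl19, Rpl21, Rpl23a and Rpl27, while 9 changed sign. In bulk tissue, a change in the share of a cell type and a change of RNA within cells cannot be told apart.

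**Figure D2:**
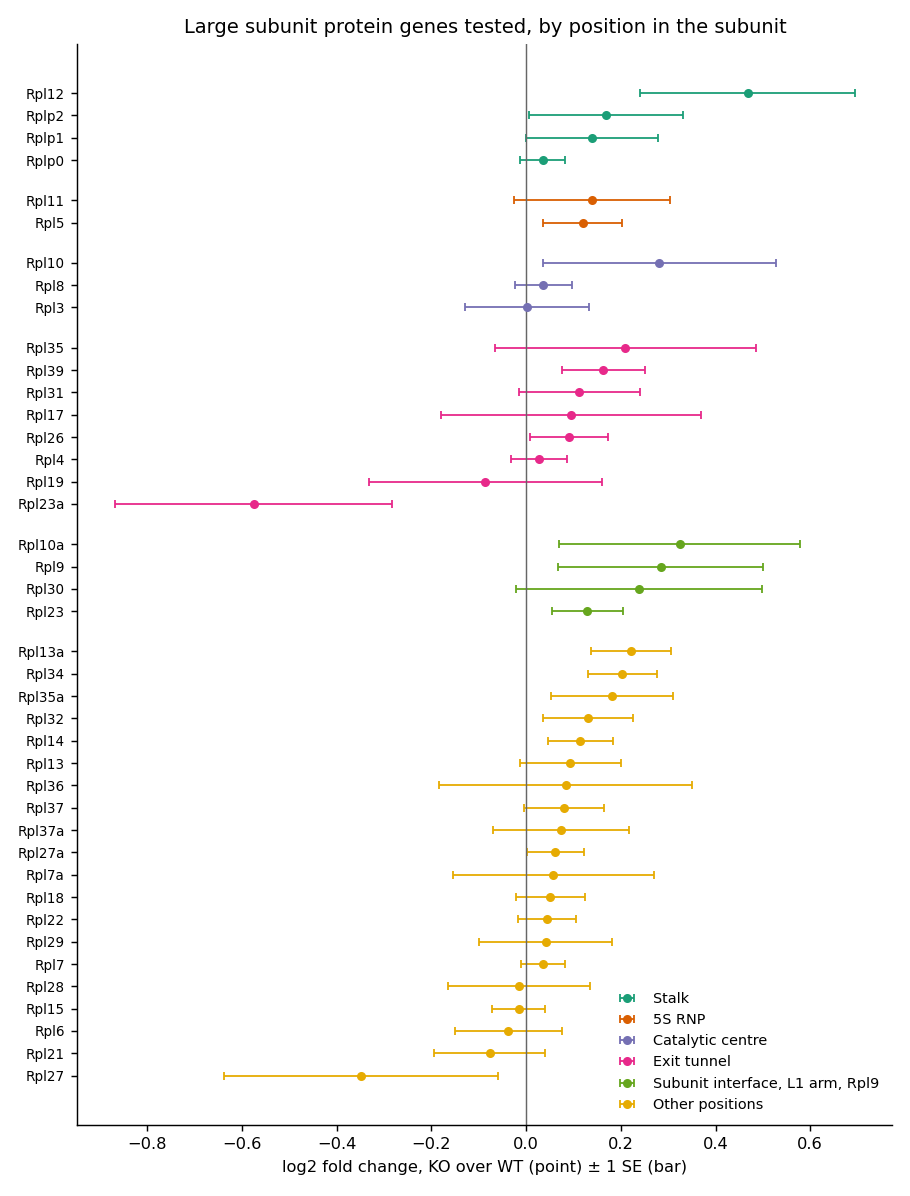
Log2 fold change of KO over WT (point) with 1 SE on each side (bar) for the 41 tested members, grouped by position in the subunit and coloured by group. Of these, 34 points lie right of 0 and 7 left of it, and the widest bars belong to Rpl23a and Rpl27.

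The stalk recruits the translational GTPases. Rplp0 forms its base on the ribosomal RNA, Rplp1 and Rplp2 are the acidic proteins that dimerise and hang from it, and Rpl12 sits beside the base. All 4 had log2 fold changes above 0, with a median of 0.15, and none passed the test. Rplp0 had 82.0, 78.1, 80.2 and 80.0 CPM in the KO libraries, against 77.4, 79.3, 75.4 and 80.4 CPM in the WT libraries. It was among the steadiest members, and its log2 fold change was 0.04 (SE 0.05). Rplp1 had 192, 185, 153 and 174 CPM in the KO libraries, against 185, 118, 149 and 187 CPM in the WT libraries. Rplp2 had 34.6, 35.5, 28.5 and 26.7 CPM in the KO libraries, against 35.0, 19.8, 27.0 and 29.7 CPM in the WT libraries. WT replicate 2 was lowest for both acidic proteins. Without that library their log2 fold changes were 0.02 and 0.04, while with all libraries they were 0.14 (SE 0.14) and 0.17 (SE 0.16). Rpl12 had 3.84, 3.67, 2.59 and 1.86 CPM in the KO libraries, against 2.39, 2.37, 1.93 and 1.96 CPM in the WT libraries. Its highest 3 values were KO libraries and its lowest was also a KO library. Its log2 fold change of 0.47 (SE 0.23) was the highest of the family, with an unadjusted p of 0.0657 and an adjusted p of 0.796 by edgeR.

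Rpl5 and Rpl11 enter the subunit together with the 5S rRNA, and outside the ribosome the same complex binds Mdm2, the ubiquitin ligase of p53. Rpl5 had 23.2, 26.8, 23.3 and 21.7 CPM in the KO libraries, against 21.6, 23.0, 23.3 and 19.6 CPM in the WT libraries. Rpl11 had 2.23, 2.74, 2.11 and 1.79 CPM in the KO libraries, against 1.98, 1.96, 1.93 and 2.19 CPM in the WT libraries. KO replicate 2 was highest for both, and the groups overlapped. The log2 fold changes were 0.12 (SE 0.08) for Rpl5 and 0.14 (SE 0.16) for Rpl11. Of 13 target genes of p53 on a list of that pathway, 7 lay above 0 and 6 below 0 with a median log2 fold change of 0.03, and none was called. The 2 with the lowest p were Pmaip1, which encodes the apoptotic protein Noxa, at -0.48 (SE 0.27), and Sesn2, a stress-induced inhibitor of mTORC1 signalling, at -0.13 (SE 0.08).

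The 3 proteins around the catalytic centre, Rpl3, Rpl8 and Rpl10, had log2 fold changes of 0.0014 (SE 0.13), 0.04 (SE 0.06) and 0.28 (SE 0.25). Rpl10 joins the subunit late and lies against the transfer RNAs. It averaged 2.24 ± 0.602 CPM in KO and 1.85 ± 0.514 CPM in WT (SD, n = 4 each), and it overlapped between the groups. The sign of the Rpl3 value changed in 5 of the other fits over all libraries.

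Of the 8 proteins that line or surround the exit tunnel, 6 had log2 fold changes above 0 and 2 below 0, with a median of 0.09, and none passed the test. Rpl39, a short protein in the wall of the tunnel, had 10.6, 11.9, 10.4 and 10.9 CPM in the KO libraries, against 10.5, 10.0, 9.76 and 8.84 CPM in the WT libraries. Only WT replicate 1 reached the range of the KO libraries, and the log2 fold change was 0.16 (SE 0.09). Rpl23a, at the tunnel exit where factors meet the new chain, went the other way. It had 0.517, 0.265, 0.277 and 0.320 CPM in the KO libraries, against 0.390, 0.561, 0.578 and 0.574 CPM in the WT libraries. The groups overlapped only in that KO replicate 1 lay above WT replicate 1. These are 8 to 19 counts in a KO library and 14 to 18 counts in a WT library, only 14.29% of its transcript is unshared, and the log2 fold change of -0.58 (SE 0.29) had an unadjusted p of 0.0773 by edgeR. The others of this group, Rpl4, Rpl17, Rpl19, Rpl26, Rpl31 and Rpl35, ran from -0.09 (Rpl19) to 0.21 (Rpl35).

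The proteins of the contact with the small subunit and of the L1 arm, through which used transfer RNA leaves, were grouped with Rpl9, which lies near the base of the stalk. All 4 tested members of this group, Rpl9, Rpl10a, Rpl23 and Rpl30, had values above 0, with a median log2 fold change of 0.26, the highest of the groups, and none passed the test. Their unshared stretches were 6.676% in Rpl9, 22.28% in Rpl10a, 65.25% in Rpl23 and 23.61% in Rpl30. Rpl9, with 46 to 110 counts per library, had 0.28 (SE 0.22). Rpl23, whose face binds the anti-association factor eIF6, had 18.5, 20.4, 20.5 and 23.2 CPM in the KO libraries, against 18.9, 18.8, 18.7 and 19.1 CPM in the WT libraries. Its WT libraries were nearly equal, 3 of the 4 KO libraries lay above all of them and KO replicate 1 lay below them. The log2 fold change was 0.13 (SE 0.07). Rpl10a, the protein of the L1 arm, had 0.32 (SE 0.26), and left-out libraries moved it between 0.11 and 0.52. Rpl30 had 22.2, 26.5, 17.8 and 16.2 CPM in the KO libraries, against 20.7, 9.76, 16.3 and 23.3 CPM in the WT libraries. Its log2 fold change of 0.24 (SE 0.26) became 0.04 without WT replicate 2, the lowest library.

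**Figure D3:**
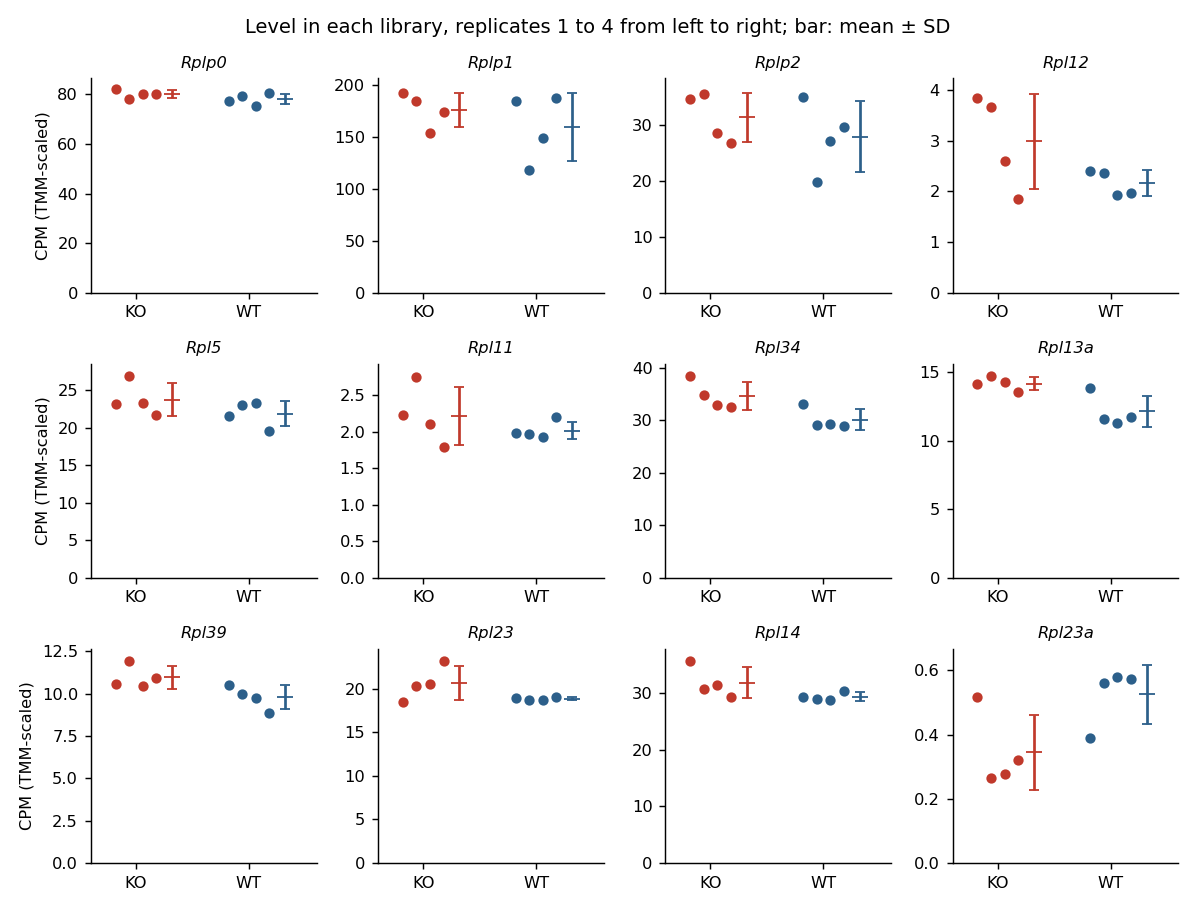
TMM-scaled CPM in each KO and WT library (points, replicates 1 to 4 from left to right) with mean ± SD (bar, n = 4) for 12 members, each axis starting at 0. Rpl34 and Rpl13a lie higher in KO except for 1 WT library, Rpl23a lies lower in KO except for 1 KO library, and Rplp1 and Rplp2 have their lowest point in WT replicate 2.

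The 2 members with an unadjusted p under 0.05 were both among the proteins of other positions. Rpl34 had 38.3, 34.8, 32.8 and 32.5 CPM in the KO libraries, against 33.0, 29.2, 29.2 and 28.9 CPM in the WT libraries. WT replicate 1 overlapped the 2 lower KO libraries and the other WT libraries lay below all KO libraries. The means were 34.6 ± 2.69 CPM in KO and 30.1 ± 1.98 CPM in WT (SD, n = 4 each), a 1.15-fold level, and the log2 fold change was 0.20 (SE 0.07). By edgeR its unadjusted p was 0.0187 and its adjusted p 0.796, and left-out libraries moved the fold change between 0.16 and 0.25. Rpl13a, which outside the ribosome takes part in a complex that silences inflammatory mRNAs in human myeloid cells, had 14.1, 14.7, 14.3 and 13.5 CPM in the KO libraries, against 13.8, 11.6, 11.3 and 11.7 CPM in the WT libraries. Here too WT replicate 1 alone overlapped the KO libraries. The log2 fold change was 0.22 (SE 0.08), with an unadjusted p of 0.0239 and an adjusted p of 0.796 by edgeR, and left-out libraries moved it between 0.20 and 0.29.

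Rpl14 had 35.6, 30.7, 31.4 and 29.3 CPM in the KO libraries, against 29.3, 29.0, 28.7 and 30.4 CPM in the WT libraries. KO replicate 1 stood above the rest, and the log2 fold change was 0.11 (SE 0.07). The gene lies on chromosome 9 at 9.08 Mb from Dclk3. The other members on that chromosome are Rpl29 at 5.01 Mb, Rpl4 at 47.3 Mb and Rplp1 at 49.5 Mb, and their log2 fold changes were 0.04, 0.03 and 0.14. Of the 20 tested members at other positions, 15 lay above 0 and 5 below 0, with a median of 0.06. Those below 0 were Rpl6 (-0.04), Rpl15 (-0.02), Rpl21 (-0.08), Rpl27 (-0.35, SE 0.29) and Rpl28 (-0.02). Rpl27 had 2.99, 1.95, 1.80 and 1.02 CPM in the KO libraries, against 3.01, 2.43, 2.70 and 1.79 CPM in the WT libraries, which overlapped. Rpl22, which mice can lose because its paralog Rpl22l1 substitutes for it, averaged 90.8 ± 4.46 CPM in KO and 88.0 ± 5.21 CPM in WT (SD, n = 4 each).

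The KO libraries differed widely among themselves. A library's score is the mean over the 41 tested members of log2 CPM centred on the 8 libraries. It was 0.23, 0.11, -0.02 and -0.18 in KO replicates 1 to 4, against 0.06, -0.12, -0.04 and -0.05 in WT replicates 1 to 4. The KO libraries thus held both the highest and the lowest score, with means of 0.04 ± 0.18 in KO and -0.04 ± 0.07 in WT (SD, n = 4 each). The summed CPM of the family instead had the larger SD in WT (95.1, against 74.7 in KO), and WT replicate 2 was lowest. KO replicate 1 had the highest level of 22 of the 41 members, against 18.7% of all genes, and KO replicate 4 had the lowest level of 15, against 15.9% of all genes. WT replicate 2 was lowest for 9 members, against 19.4% of all genes. Some members departed from this order. Rpl23 was lowest in KO replicate 1 and highest in KO replicate 4, and so was Rpl15, with 52.6, 56.4, 53.9 and 59.4 CPM in the KO libraries, against 55.0, 57.4, 54.0 and 58.2 CPM in the WT libraries. The coefficient of variation was larger in KO than in WT in 26 of 41 members, and in 55.7% of all genes tested.

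**Figure D4:**
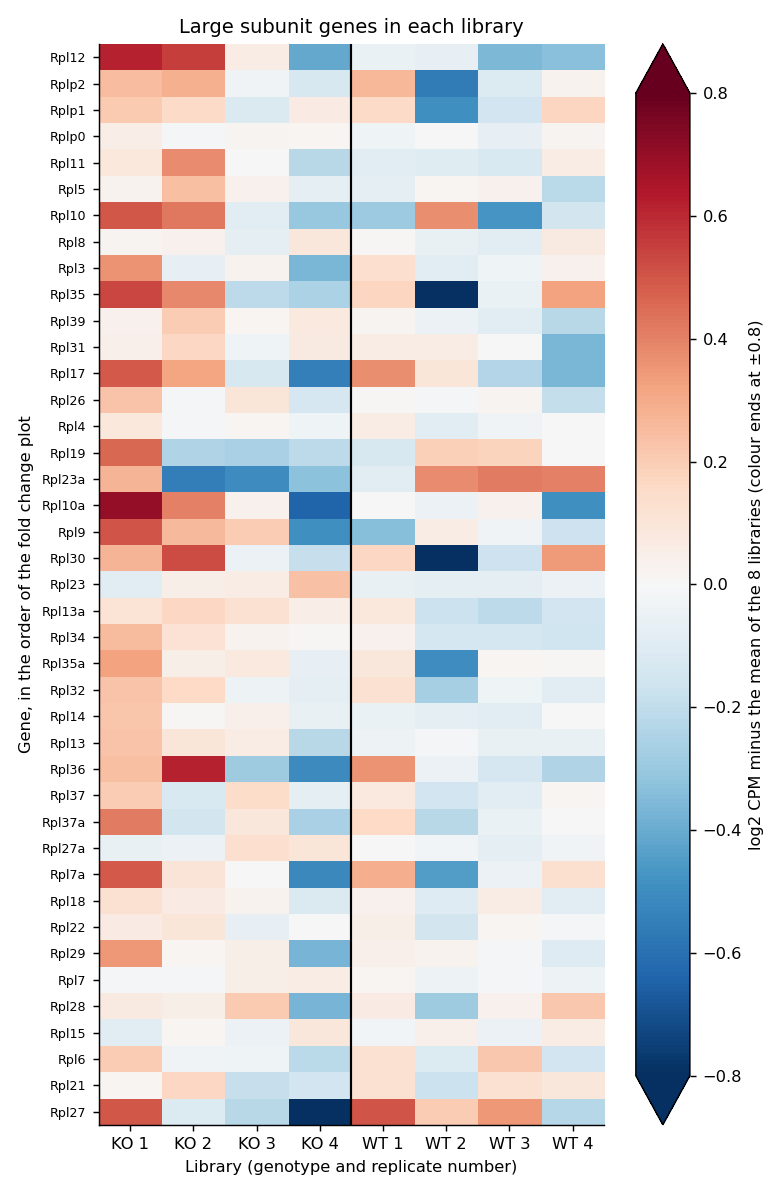
Log2 CPM of the 41 tested members in each library after subtraction of the gene's mean over the 8 libraries, with KO left and WT right of the black line and red for higher levels. KO replicate 1 holds the highest value of 22 genes and KO replicate 4 the lowest value of 15, and no gene separates the genotypes.

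For the small subunit, for elongation factors and other TOP genes and for short genes in general, the KO libraries ranked as they did for the family. The 32 tested genes of the small subunit had 30 values above 0 and 2 below 0, with a median log2 fold change of 0.09, and none was called. Their score was 0.24, 0.08, 0.04 and -0.08 in KO replicates 1 to 4, against -0.02, -0.17, -0.08 and 0.0015 in WT replicates 1 to 4. Over the 8 libraries the small subunit score had a correlation of 0.88 with the family's score, so the 2 sign counts are not independent. The score of the elongation and TOP genes was 0.05, 0.04, -0.0095 and -0.04 in KO replicates 1 to 4, against 0.01, -0.03, -0.02 and -0.00098 in WT replicates 1 to 4. The shortest 10% of all genes tested, with the listed ribosomal genes removed, had a median score of 0.13, 0.07, -0.0051 and -0.08 in KO replicates 1 to 4, against 0.07, -0.11, 0.01 and -0.03 in WT replicates 1 to 4. These shortest genes were taken by merged exon length. Members can have a short coding transcript and long merged exons, as Rpl35a (491 and 3526 bases) and Rpl34 (480 and 2643 bases) do. A fit that removed each library's trend on merged exon length gave the members a median of 0.05 in place of 0.09, with 32 of 41 above 0. It did not adjust for transcript length, and what part length has in the shift was not tested further. Among markers of other cells, all 5 blood genes lay above 0 with an unadjusted p under 0.05 and a median log2 fold change of 0.58, and their summed level was 79.0 to 174 CPM in KO and 69.2 to 102 CPM in WT. Their score was 0.69, -0.37, 0.58 and 0.15 in KO replicates 1 to 4, against -0.0055, -0.43, -0.12 and -0.49 in WT replicates 1 to 4. The 8 choroid plexus markers summed to 187 to 3430 CPM in KO and 73.0 to 2202 CPM in WT, with 7 of 8 above 0. Their score was -1.22, 2.11, 0.86 and -0.91 in KO replicates 1 to 4, against -1.12, 1.74, 0.59 and -2.05 in WT replicates 1 to 4. The 8 interneuron markers summed to 876 to 906 CPM in KO and 957 to 1006 CPM in WT, which did not overlap. Of these markers 3 of 8 lay above 0, with a median log2 fold change of -0.14. Their score, which weights the genes equally, did overlap. It was -0.01, -0.01, 0.02 and -0.04 in KO replicates 1 to 4, against 0.10, -0.05, -0.03 and 0.04 in WT replicates 1 to 4. Granule cell markers had 8 of 8 above 0 with a median of 0.21, and their summed levels did not overlap either, and CA1 and CA3 markers had 0 of 6 and 0 of 5 above 0. Above 0 were also 7 of 7 microglia, 6 of 6 endothelium, 6 of 7 oligodendrocyte, 5 of 7 astrocyte and 2 of 5 ependyma markers. No marker gene was called, none was at 0 in all libraries, and the part of these cell types in the values of the family was not tested.

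**Figure D5:**
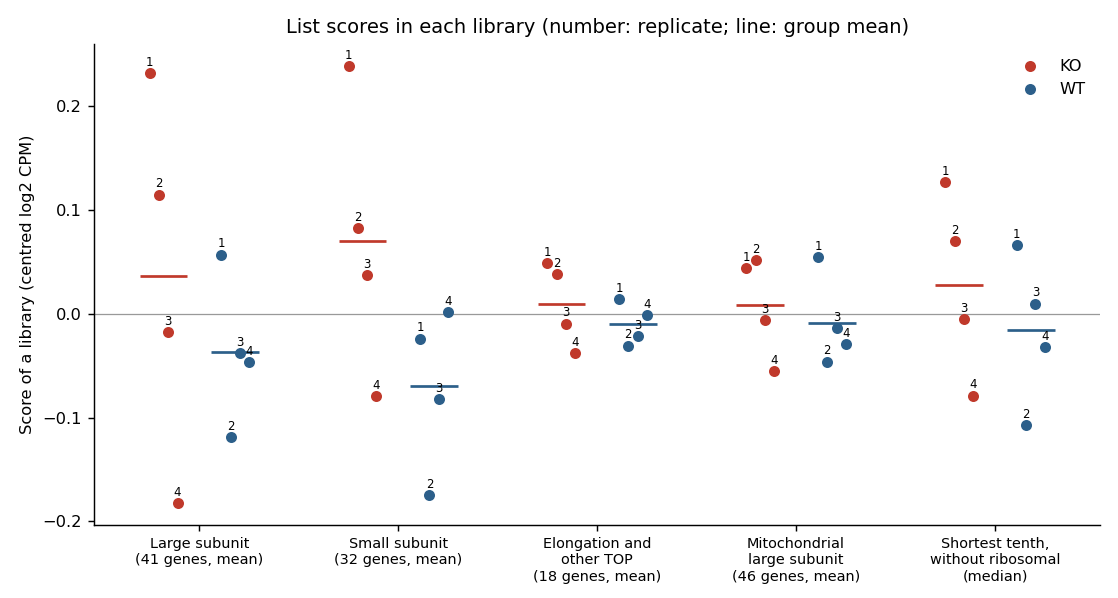
Score of each KO and WT library (centred log2 CPM, mean or median over the named genes) for the large subunit, the small subunit, elongation factors and other TOP genes, the mitochondrial large subunit, and the shortest 10% of genes without the listed ribosomal genes; numbers are replicates and lines are group means. KO replicate 1 is highest in all sets but the mitochondrial large subunit, and the elongation and mitochondrial sets span a narrower range than the other 3.

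The relatives and partners of the family were described from lists chosen by name. Of 9 paralogs and further genes of the large subunit on the list, 7 were in the table and 5 were tested, of which 4 lay above 0 and 1 below 0, with a median of 0.14. Rpl41, the shortest protein of the ribosome, averaged 20.5 ± 2.58 CPM in KO and 17.4 ± 1.82 CPM in WT (SD, n = 4 each), with a log2 fold change of 0.24 (SE 0.11) and an unadjusted p of 0.0465 by edgeR. The others were Rpl36a (0.23), Rpl22l1 (0.14), Rpl36al (0.11) and Rpl7l1 (-0.01). Rpl3l, the paralog of heart and skeletal muscle, had 7, 10, 6 and 4 counts in the KO libraries, against 5, 4, 2 and 8 counts in the WT libraries. Rpl39l, the paralog known from male germ cells, had 3, 3, 0 and 0 counts in the KO libraries, against 2, 1, 0 and 2 counts in the WT libraries. Neither was tested.

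The factors that build the large subunit did not share the family's balance of signs. Of 36 assembly factors, 10 lay above 0 and 26 below 0, with a median log2 fold change of -0.04, and none was called. In 4 of the 36 (11.1%) all KO libraries lay below all WT libraries, as in 1.92% of all genes tested, and in 0 they lay above. These were Bop1 (-0.11), Nop16 (-0.08), Eif6 (-0.11) and Rrp1, the first 3 named after their values were seen. Nvl, a nucleolar ATPase of large subunit assembly, averaged 52.3 ± 7.72 CPM in KO and 42.3 ± 2.50 CPM in WT (SD, n = 4 each), with a log2 fold change of 0.31 (SE 0.10). Rrp1, a nucleolar assembly protein, averaged 257 ± 8.57 CPM in KO and 285 ± 10.7 CPM in WT (SD, n = 4 each), with a log2 fold change of -0.15 (SE 0.06). Of 17 genes of ribosomal RNA transcription, 10 lay above 0 and 7 below 0, with a median of 0.02. Taf1d, a subunit of the selectivity factor of RNA polymerase I, had a log2 fold change of 0.44 (SE 0.13). Gtf3c2, a subunit of the factor through which RNA polymerase III makes the 5S rRNA, had 0.20 (SE 0.07) with all KO libraries above all WT libraries. Adjusted p by edgeR was 0.796 for Nvl, Rrp1, Taf1d and Gtf3c2.

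Genes that share the TOP element or act through it were also listed. Of 18 elongation factors and other TOP genes, 10 lay above 0 and 8 below 0, with a median log2 fold change of 0.02. Hnrnpa1, an RNA-binding protein, had 0.23 (SE 0.09), and Eef1a2, the elongation factor of mature neurons and muscle, had -0.11 (SE 0.07). Of 14 genes of mTORC1 and TOP control, 4 lay above 0 and 10 below 0, with a median of -0.03. Larp1 had -0.11 (SE 0.07) and Rptor, a subunit of mTORC1, had -0.09 (SE 0.06). Of 46 tested proteins of the mitochondrial large subunit, 23 lay above 0 and 23 below 0, with a median of 0.0038. Mrpl23 had 0.89 (SE 0.33) and Mrpl55 had -0.13 (SE 0.06), both proteins of that subunit. In the small subunit, Rps24 had 0.14 (SE 0.06), and Rps19, a gene mutated in human Diamond-Blackfan anaemia, had 0.11 (SE 0.05) with all KO libraries above all WT libraries. No gene of any of these lists was called, and the differences between the lists and the family were not tested.

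The starts of the genes hold a sequence feature that the choice of members did not use. RefSeq promoter windows (GRCm38.p6, which is mm10, from 250 bases before to 50 bases after the start) were at hand for 32 of the 43 members. The letters CCGGAAG, the core to which Ets family factors such as GABP bind, occurred on either strand in 13 of these 32 windows (40.6%), in 10 of 25 windows of small subunit genes (40%), and in 9.93% of 27025 genes. The letters TCGCGAGA occurred in 6 of 32 (18.75%), 5 of 25 (20%) and 1.13%. The pyrimidine runs CTTTCC and CTTTTC, searched on both strands, occurred in 59.4% and 31.2% of member windows and in 29.3% and 24.3% of all genes. GCCATC occurred in 25% and in 15.9%. The motifs were chosen after the windows of these members had been read, so the shares are a description. The following 30 bases are shown for 4 members with values in every library above, with CCGGAAG or its reverse complement CTTCCGG in capitals and each read along the strand of its gene.
Rplp2: gaaatgtcttcCTTCCGGtgcacccttttc
Rpl11: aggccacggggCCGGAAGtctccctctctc
Rpl34: ttccttttcctCTTCCGGggacggtgctca
Rpl39: ctaatcgcgttCTTCCGGtcccggcctttc
The Rplp2 window is chr7:141447532-141447561 on the plus strand, and the Rpl11 window is chr4:136053369-136053398 on the minus strand. The Rpl34 window is chr3:130730321-130730350 and the Rpl39 window is chrX:37085181-37085210, both on the minus strand. The motif begins 108 bases before the start in Rplp2 and 2 bases before it in Rpl34, and at base 7 and base 24 from the start in Rpl11 and Rpl39. The median log2 fold change between the genotypes was 0.10 over the 12 tested members with it and 0.10 over the 18 tested members without it. Over the 11 tested members with no window at hand it was 0.04 on the log2 scale.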

How the data were processed

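The deposited table held raw read counts, whole numbers with 1 row per Ensembl gene and 1 column per library, which the authors had not normalized, per the file headers. The submitters' processing notes name bcl2fastq 2.17.1.14 and the build mm10. For aligner, counter, annotation release, strand setting and read length the sources used here give nothing. Libraries were made from 1000 ng of RNA with 12 PCR cycles, per the labels' protocols. The reads carry no molecular identifiers, so counting precision overstates the number of molecules seen.

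The contrast KO over WT was fitted with edgeR 4.0.16 under R 4.3.3 (TMM, filterByExpr, robust quasi-likelihood test, Benjamini-Hochberg adjustment over 16228 genes, threshold 0.05). The SE is the log2 fold change divided by the square root of F. The code was tested on simulated data. Scores used log2 CPM with a prior count of 2. Alternatives were DESeq2 1.42.0, limma-voom 3.58.1 with quality weights, DESeq2 size factors, upper quartile factors, no filter, at least 1 CPM in 4 libraries, non-robust dispersion, a threshold of 0.1, the replicate number as a block, a smooth length trend per library (span 0.3), pseudogene counts added to their member, and each library left out. The pseudogene counts added were those of 131 genes named after a member, for 34 members. Pseudogenes with other names were not added. All pairs of libraries within a group differed by more than sampling noise (chi-square per degree of freedom 8.85 to 40.9).

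Symbols were missing for 125 IDs. Positions and transcripts came from GENCODE M21 (mm10), and promoter letters from RefSeq. The members and lists were chosen with earlier results of these data known. The naming rule took Dclk3, any member (values in every library for the 8 with the lowest p, 3 at each end of level per kilobase, the stalk and the 5S pair), 2 genes with the lowest p per other list and the tested paralogs, of which 2 are not reported here. Library values of Rpl15, Rpl27 and Rpl30, and the promoter windows and shared stretches printed, were chosen after their values were seen.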

Additional observations from a re-analysis of the deposited data

Results flagged for a closer look

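In 134 groups of 4 libraries, 9 held a value whose gap to the nearest other library, divided by the group's range, was above Dixon's 95% critical value of 0.829. Chance alone puts about 1 in 20 groups past it, so 9 of 134 is near what chance gives. Among the members, Rpl19 had 0.952 CPM in KO replicate 1, against 0.554 to 0.576 CPM in the other KO libraries. Rpl21 had 6.05 CPM in WT replicate 2, against 7.26 to 7.43 CPM in the other WT libraries. Rpl23a had 0.390 CPM in WT replicate 1, against 0.561 to 0.578 CPM in the other WT libraries. Rpl31 had 3.38 CPM in WT replicate 4, against 4.37 to 4.55 CPM in the other WT libraries. Rpl34 had 33.0 CPM in WT replicate 1, against 28.9 to 29.2 CPM in the other WT libraries. Rpl35a had 22.6 CPM in WT replicate 2, against 32.1 to 34.0 CPM in the other WT libraries. Outside the family, Dclk3 had 39.3 CPM in WT replicate 2, against 20.8 to 23.5 CPM in the other WT libraries. Rpl36a had 2.94 CPM in KO replicate 2, against 3.65 to 3.74 CPM in the other KO libraries, and Taf1d had 7.52 CPM in KO replicate 4, against 10.7 to 11.1 CPM in the other KO libraries.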

How the results depend on the processing

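No alternative called a large subunit gene. Over all genes, DESeq2 called 5 (Dclk3, Col6a4, Zcchc7, Eml5 and Ftx, named after their values were seen), the replicate block 1 (Dclk3), and the fits without 1 library 0 to 1. The deviations of same-numbered libraries from their group means had correlations of 0.14, 0.12, -0.22 and -0.01. Of the 8 libraries, 2 correlated best with their own number. The numbers were therefore not taken as pairs, although choroid plexus marker scores were high in replicates 2 and 3 and low in 1 and 4 of both genotypes. The block gave 33 members above 0 and a median of 0.08. Restricting the count to the 16 members with 50% or more of their stretches unshared, an alternative added after the data were seen, left 13 above 0, because fewer genes are counted.

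The family's median stayed above 0 in every fit, at 0.04 to 0.15, with 0.05 under length offsets. Some single log2 fold changes changed sign, as follows, and the cause was not tested. Upper quartile factors gave Rpl15 0.0024, Rpl28 0.0035 and Rpl7l1 0.010. Limma-voom gave Rpl3 -0.035, Rpl7a -0.011, Rpl37a -0.0035 and Rpl7l1 0.018. Rpl3 was -0.0066 with DESeq2, -0.00062 with its size factors, -0.018 with the block and -0.0073 with length offsets. Length offsets gave Rpl29 -0.0071, elongation and TOP genes -0.0086 and mitochondrial large subunit -0.021. Added pseudogene counts gave Rpl17 -0.075. The filter on CPM gave Rpl7l1 0.0012 and p53 targets -0.0044. Left-out libraries moved Rpl3 between -0.13 and 0.11, Rpl6 between -0.11 and 0.035, Rpl7a between -0.12 and 0.21, Rpl15 between -0.050 and 0.015, Rpl17 between -0.081 and 0.26, Rpl28 between -0.10 and 0.090, Rpl29 between -0.080 and 0.15, Rpl36 between -0.15 and 0.24, Rpl37a between -0.072 and 0.16 and Rpl7l1 between -0.028 and 0.029. List medians moved between -0.0023 and 0.040 for elongation and TOP genes, -0.0075 and 0.016 for the mitochondrial large subunit, -0.092 and 0.071 for p53 targets and -0.022 and 0.050 for ribosomal RNA transcription. Depth limits Rpl24, Rpl38, Rpl23a and Rpl19, with 2 to 35 counts per library.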
